A study of Arabidopsis thaliana with 12 samples.

Results

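DFR, APL3 and SAG29 are 3 Arabidopsis thaliana genes of anthocyanin synthesis, starch synthesis and sugar transport, out of 13350 genes that the array annotation ties to a probe set of 1 gene. They were chosen by their intensity: each stood higher in a chitin receptor mutant than in wild type when both had been given water, so that contrast is described here and not tested. DFR (AT5G42800), APL3 (AT4G39210) and SAG29 (AT5G13170, also called SWEET15) each have 1 probe set, named for that gene alone. All 3 were measured on every array, and no value of theirs was at 0.

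The data are 12 one-colour Affymetrix arrays of RNA from whole seedlings, kept for 14 days in liquid MS medium under constant light at 23 °C. The plants were Col-0 wild type or carried, in Col-0, a mutation in the chitin receptor, whose allele the labels do not name. Seedlings of each genotype received chitooctaose, a soluble fragment of the chitin of fungal cell walls, at 1 uM (written "um" in the labels and read as micromolar) for 30 minutes, or water for the same time. The 4 groups thus formed hold 3 arrays each, titled as biological replicates, and nothing says how many seedlings were pooled or whether cultures were separate, so p-values measure the spread between these samples.

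Array medians ran from 177 to 200.5, and r between 2 arrays of a group, over all probe sets, lay between 0.984 and 0.993. Of the 12 arrays, replicate 1 of wild type with chitooctaose departed most from its group mean, with a residual SD of 0.210 on the log2 scale. Results of DFR that rest on it are also given without it. The seedling label was checked by the Rubisco activase gene RCA, a marker of green tissue, at 13513 to 16002 on all arrays, and by the root beta-glucosidase gene PYK10, at 8831 to 10279. A gene of a list is called measured here where a probe set is named for it alone, and genes without one may still have a probe set that the annotation leaves unnamed or gives to several genes. RCA was the 1 measured gene of 14 green tissue markers, PYK10 was 1 of 3 measured of 10 root markers, and none of 6 seed markers had such a probe set. CERK1, the chitin receptor gene, has no probe set named for it, which leaves the labels of genotype without a check by its transcript.

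The 3 gene products act at separate points of carbon use. Dihydroflavonol 4-reductase, made from DFR, turns dihydroflavonols into leucoanthocyanidins and commits flavonoids to the anthocyanin branch, which colours stressed or sugar-fed seedlings. APL3 codes for a large subunit of ADP-glucose pyrophosphorylase, the enzyme that makes the glucose donor for starch, and its transcript is known to rise when sugar is supplied. SAG29 codes for a sucrose transporter of the SWEET family in the plasma membrane, and is known for high levels in senescing leaves and under osmotic stress.

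DFR was low in wild type and high in the mutant. In wild type with water its intensity was 41.2, 40.1 and 33.8 in replicates 1 to 3, and in the mutant with water it was 477, 396 and 459.8. With chitooctaose it was 31.1, 79.1 and 74.4 in wild type and 231, 277 and 237 in the mutant. All 6 mutant arrays lay above all 6 wild type arrays, and the mutant arrays with chitooctaose all lay below those with water. The wild type groups overlapped, since replicate 1 with chitooctaose was lower than every water array while the others were higher.

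APL3 showed the genotype difference with little sign of the treatment. Wild type arrays read 91.9, 103 and 108 with water and 98.3, 155 and 116 with chitooctaose. Mutant arrays read 503, 484 and 543 with water and 486, 494 and 322 with chitooctaose. The genotypes did not overlap, the lowest mutant array being replicate 3 with chitooctaose. Within each genotype the water and chitooctaose arrays overlapped.

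SAG29 was dim in wild type. Its intensity there was 32.4, 23.5 and 20.5 with water and 20.2, 26.7 and 26.7 with chitooctaose, not far above the 16 that was added before taking logarithms. In the mutant it was 139, 149.9 and 181 with water and 85.3, 98.3 and 105 with chitooctaose. The genotypes were again apart on all 12 arrays, the wild type groups overlapped, and the mutant groups did not.

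**Figure D1:**
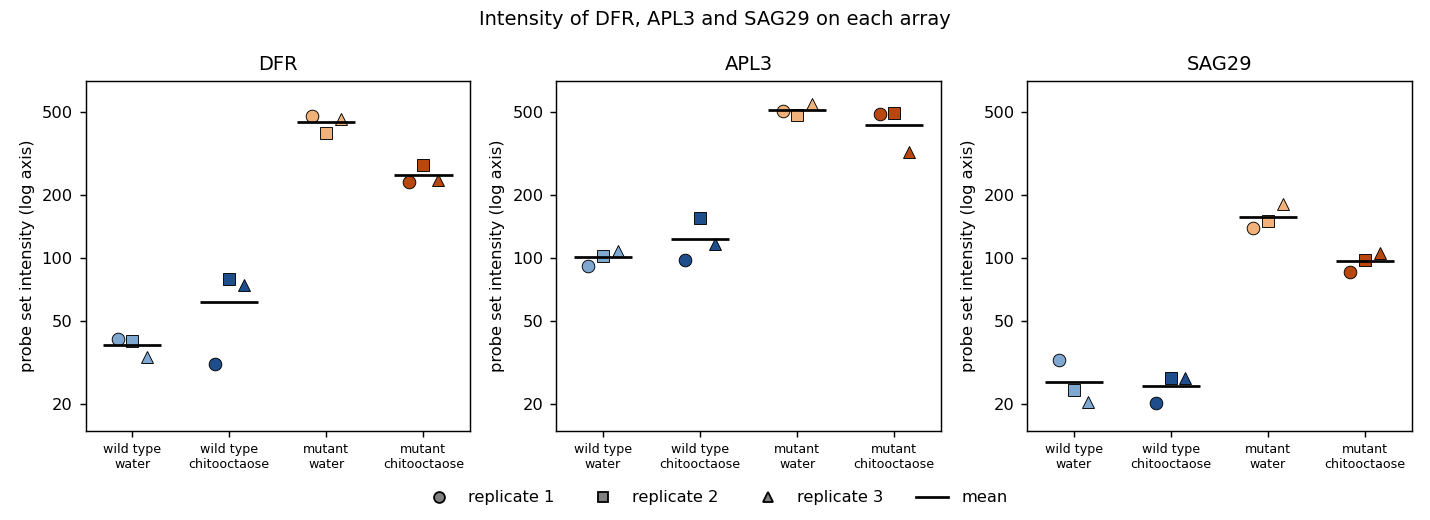
Probe set intensity (vertical, log axis) of DFR, APL3 and SAG29 on each of the 12 arrays, by group; symbols mark the replicate and bars the group mean. Every mutant array lies above every wild type array for each gene, and the mutant means with chitooctaose (248, 434 and 96.3) lie below those with water (444, 510.2 and 157). The genes were chosen for high values in the mutant in water, which sets part of both.

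The genotype difference in chitooctaose is between means of 6 arrays on which the rule that chose the genes sets no condition. It is the comparison of them that was tested. Its standard error and p also draw on the water arrays, since 1 spread per probe set was fitted to all 12 arrays. The choice was made with earlier results of all 12 arrays known, so these p-values are not from arrays kept apart from it. All 3 genes were higher in the mutant. Differences are of mean log2(intensity + 16), which makes a change of a dim gene smaller than its ratio of intensities, and ± gives the standard error from the fit, with n = 3 arrays in each group, except where SD is written. DFR was higher by 1.83 ± 0.20 (limma, adjusted p = 1.7e-06), at 248 ± 25.3 against 61.5 ± 26.5 (SD, n = 3 each), a 4.04-fold ratio of mean intensities. APL3 was higher by 1.69 ± 0.16 (limma, adjusted p = 2.5e-07), at 434 ± 97.1 against 123 ± 29.2 (SD, n = 3 each), a 3.52-fold ratio. SAG29 was higher by 1.47 ± 0.15 (limma, adjusted p = 1.0e-06), at 96.3 ± 10.1 against 24.5 ± 3.76 (SD, n = 3 each), a 3.92-fold ratio.

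Each difference exceeded the spread between replicates, with no overlap of the groups. The 95% intervals were 1.42 to 2.25 for DFR, 1.36 to 2.01 for APL3 and 1.15 to 1.79 for SAG29, and they overlap one another. In this comparison 1768 of 22746 probe sets were called higher in the mutant, or 7.77%, and 9.5% lower, and 14.3% of probe sets had the mutant arrays all above those of wild type. Ranked by size of increase, DFR was 29th, APL3 37th and SAG29 51st of the 22746. Without replicate 1 of wild type the DFR difference was 1.51 ± 0.12, and with 64 in place of 16 added before the logarithm that of SAG29 was 0.86 ± 0.09. Each of the 3 calls held under every alternative run.

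**Figure D2:**
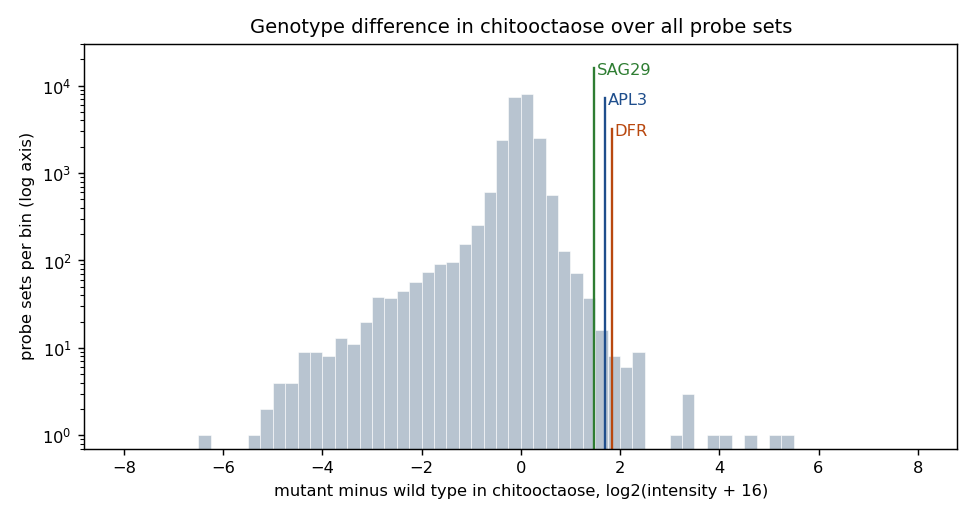
Number of probe sets (vertical, log axis) by the genotype difference in chitooctaose, mutant minus wild type on the log2(intensity + 16) scale, for all 22746 probe sets; lines mark the 3 genes. DFR (1.83), APL3 (1.69) and SAG29 (1.47) stand in the right tail, and the left tail is longer.

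In water, where the genes were chosen, the differences were larger in value. DFR differed by 3.08 ± 0.20 (444 ± 42.6 against 38.4 ± 4.01), APL3 by 2.17 ± 0.16 (510.2 ± 30.3 against 101 ± 8.39) and SAG29 by 2.06 ± 0.15 (157 ± 21.5 against 25.5 ± 6.19, SD, n = 3 each). As ratios of mean intensities these are 11.6-fold, 5.05-fold and 6.14-fold. Among genes with a probe set of their own DFR stood 2nd, APL3 8th and SAG29 9th by size of increase in water, with AT1G43910 (2.29) just above APL3 and AT1G76960 (1.99) just below SAG29. In water 917 probe sets were called higher in the mutant, or 4.03%, and 6.3% lower, and 14.3% had mutant arrays that all lay above those of wild type. These values chose the genes and support nothing further.

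The change from water to chitooctaose shares the water arrays with the contrast that chose the genes, so it is given with no test. In the mutant DFR was lower with chitooctaose by a difference of -0.80 ± 0.20, SAG29 by -0.62 ± 0.15 and APL3 by -0.25 ± 0.16. The APL3 value rested on replicate 3 with chitooctaose and was -0.06 ± 0.14 without it. The mutant water arrays were those on which the genes had been picked for high values. For comparison 175 of 22746 probe sets were called lower in the mutant with chitooctaose, or 0.769%, and 11.4% had arrays that all lay below the water arrays, as DFR and SAG29 did. In wild type the changes were 0.45 ± 0.20 for DFR, 0.23 ± 0.16 for APL3 and -0.03 ± 0.15 for SAG29. The value of DFR was 0.77 ± 0.12 without replicate 1 with chitooctaose and 0.27 ± 0.20 without replicate 2, and that of APL3 was 0.37 ± 0.16 and 0.07 ± 0.15 without the same arrays. That of SAG29 ran from -0.11 to 0.09 when single arrays were left out. Subtracting the wild type change from the mutant change gave -1.25 ± 0.28 for DFR (-1.57 ± 0.16 without wild type chitooctaose replicate 1), -0.48 ± 0.22 for APL3 (-0.62 to -0.29 without single arrays) and -0.59 ± 0.21 for SAG29, a quantity that too contains the contrast that chose the genes.

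The other measured genes of the same pathways differed far less between genotypes. DFR, APL3 and SAG29 were chosen for high values in the mutant in water. A gap to genes not so chosen was thus partly set beforehand, and was not tested. Of 127 genes in 7 lists of flavonoid, starch and sugar genes, 37 were measured, and their differences ran from -0.73 to 0.61 in water and from -0.62 to 0.59 in chitooctaose. In water 5 of the 37 were called higher and 2 lower (18.9%, where 10.3% of all probe sets were called), with a median of 0.09 against -0.0023 over all probe sets. In chitooctaose 2 were higher and 3 lower (13.5%, where 17.3% of all probe sets were called), with a median of -0.06. All calls are by limma at an adjusted p under 0.05 over the 22746 probe sets. The same 37 genes were called for a change with chitooctaose as follows. In wild type 7 were higher and 4 lower (29.7%, against 18.9% of all probe sets, 8.82% higher and 10.1% lower). In the mutant 0 were higher and 1 was lower (2.70%, against 1.49% of all probe sets, 0.721% higher and 0.769% lower). There 9 of the 37 had an unadjusted p under 0.05, a larger share than the 10.8% of all probe sets. The difference of these responses, tested by its own term, was called for 6 (1 higher and 5 lower in the mutant, 16.2%, against 11.3% of all probe sets, 4.66% higher and 6.62% lower).

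Among late anthocyanin enzymes, which act with or after DFR, 5 of 11 were measured and 1 was called. UGT78D2, a flavonoid 3-O-glucosyltransferase, was higher in the mutant in water by 0.44 ± 0.09 (adjusted p = 0.0045), at 301, 334 and 343 in wild type, from lowest to highest, and 427, 442 and 474 in the mutant. In chitooctaose its groups overlapped and it differed by -0.06 ± 0.09. UGT75C1, the anthocyanin 5-O-glucosyltransferase, gave 0.31 ± 0.20 in water and 0.12 ± 0.20 in chitooctaose, and neither was called. The malonyltransferase gene 5MAT gave 0.35 ± 0.19 and -0.23 ± 0.19 (the latter -0.44 to -0.09 without single arrays). The anthocyanidin reductase gene BAN and the glycosyltransferase gene UGT79B1 were not called either. 5MAT (20.9 to 44.1), BAN (18.7 to 65.6) and UGT79B1 (26.9 to 70.1) were dim on all 12 arrays, where the added 16 shrinks a difference. The list median was 0.35 in water and -0.06 in chitooctaose. None of the 5 upper 95% limits in chitooctaose exceeded 0.63, that of BAN, below the 1.42 at which the interval of DFR begins. DFR was picked for high values in the mutant, so this gap is a description and not a test.

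Of 16 early flavonoid and phenylpropanoid enzymes 3 were measured. UGT78D1, a flavonol rhamnosyltransferase, was higher in the mutant by 0.43 ± 0.10 in water (adjusted p = 0.0095) and by 0.39 ± 0.10 in chitooctaose (adjusted p = 0.010), and each call was lost in 1 of 6 fits that left out an array, at adjusted p = 0.059 without wild type water replicate 1 and 0.057 without mutant chitooctaose replicate 3. CHIL, a chalcone isomerase-like protein, and UGT89C1, another flavonol rhamnosyltransferase, were not called. No member of the list of 20 flavonoid regulators has a probe set named for it alone, so the MYB and bHLH factors that act on DFR were not analysed here.

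The other measured starch synthesis genes differed less than APL3. APL4, coding for another large subunit of the same enzyme, read 72.1 to 93.5 in wild type and 94.1 to 95.8 in the mutant with water, and differed by 0.19 ± 0.15 there and by 0.27 ± 0.15 in chitooctaose, with no call. Its upper 95% limit in chitooctaose was 0.58, against a lower limit of 1.36 for APL3. This too is a description, since APL3 was picked for high values in the mutant. SBE2.2, a starch branching enzyme gene, was higher in the mutant in water by 0.61 ± 0.12 (adjusted p = 0.0019) and differed by 0.14 ± 0.12 in chitooctaose. These were the 2 measured of 18 genes of starch synthesis.

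Of 22 starch breakdown genes 3 were measured. PWD, the phosphoglucan water dikinase gene, was higher in water by 0.39 ± 0.08 (adjusted p = 0.0023). In chitooctaose the alpha-amylase gene AMY1 was higher by 0.59 ± 0.18 (adjusted p = 0.034), a call lost in 5 of 6 fits that left out an array, with a difference from 0.43 to 0.84. Its difference in water was 0.57 ± 0.18 (adjusted p = 0.061), not called, with no overlap of the groups in either treatment. DPE1, a disproportionating enzyme of the chloroplast, was lower in chitooctaose by -0.37 ± 0.09 (adjusted p = 0.0062). In water DPE1 gave 0.27 ± 0.09 (adjusted p = 0.063), with the mutant arrays all above those of wild type, and it was called there under median centring, quantile normalization and the removal of dim probe sets.

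The SWEET family was nearly complete, with 15 of the other 16 genes measured. In the main fit none was called higher in the mutant in either treatment. SWEET16, a sugar transporter of the vacuole membrane, was lower in water by -0.61 ± 0.12 (adjusted p = 0.0024), at 249, 255 and 255 in wild type, from lowest to highest, and 149, 164 and 166 in the mutant. In chitooctaose limma called 0 of the 15, with 1 at an unadjusted p under 0.05, where 17.3% of all probe sets were called and 28.0% had such a p. That one was SWEET11, a sucrose exporter of leaf phloem, which differed by -0.20 ± 0.08 in chitooctaose (adjusted p = 0.11) and by 0.26 ± 0.08 in water (adjusted p = 0.054). Its difference in chitooctaose ran from -0.32 to -0.13 without single arrays. Under the alternatives described below, SWEET11 was called higher in water in 4 and not in 10. In chitooctaose it was called lower in 2 and not in 12, and SWEET16 was called lower in 1 and not in 13. The family median was -0.01 in water and -0.06 in chitooctaose. Its highest upper 95% limit in chitooctaose was 0.80, for SWEET7, against a lower limit of 1.15 for SAG29. SAG29 was picked for high values in the mutant, so the gap was not a test of it against its family.

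Of 24 other sugar transporters 6 were measured, and limma called 0 in either treatment, with 1 at an unadjusted p under 0.05 in water and 0 in chitooctaose, where 21.5% and 28.0% of all probe sets had such a p. STP3 and TMT1 gave 0.23 ± 0.11 and -0.16 ± 0.08 in water, and SFP2 and SFP1 gave -0.31 ± 0.16 and -0.27 ± 0.16 in chitooctaose. STP3 in water was 0.10 without wild type water replicate 3, and was called by limma under median centring (adjusted p = 0.049) and quantile normalization (adjusted p = 0.039). TMT1 in water ran from -0.24 to -0.11 without single arrays. Without mutant chitooctaose replicate 3, SFP2 was -0.09 and SFP1 -0.02, and without mutant chitooctaose replicate 1 they were -0.46 and -0.47, the latter called by limma (adjusted p = 0.045). Of 20 genes of sucrose metabolism 3 were measured. SPS4F, a sucrose phosphate synthase gene, was higher in water by 0.38 ± 0.09 (adjusted p = 0.0074) and lower in chitooctaose by -0.40 ± 0.09 (adjusted p = 0.0025). Its call in water was lost without mutant water replicate 3, at adjusted p = 0.0502. FRUCT3, a vacuolar invertase gene, was lower in water by -0.73 ± 0.09 (adjusted p = 3.9e-05), and cwINV6, a cell wall fructan hydrolase gene, was lower in chitooctaose by -0.62 ± 0.13 (adjusted p = 0.0022).

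**Figure D3:**
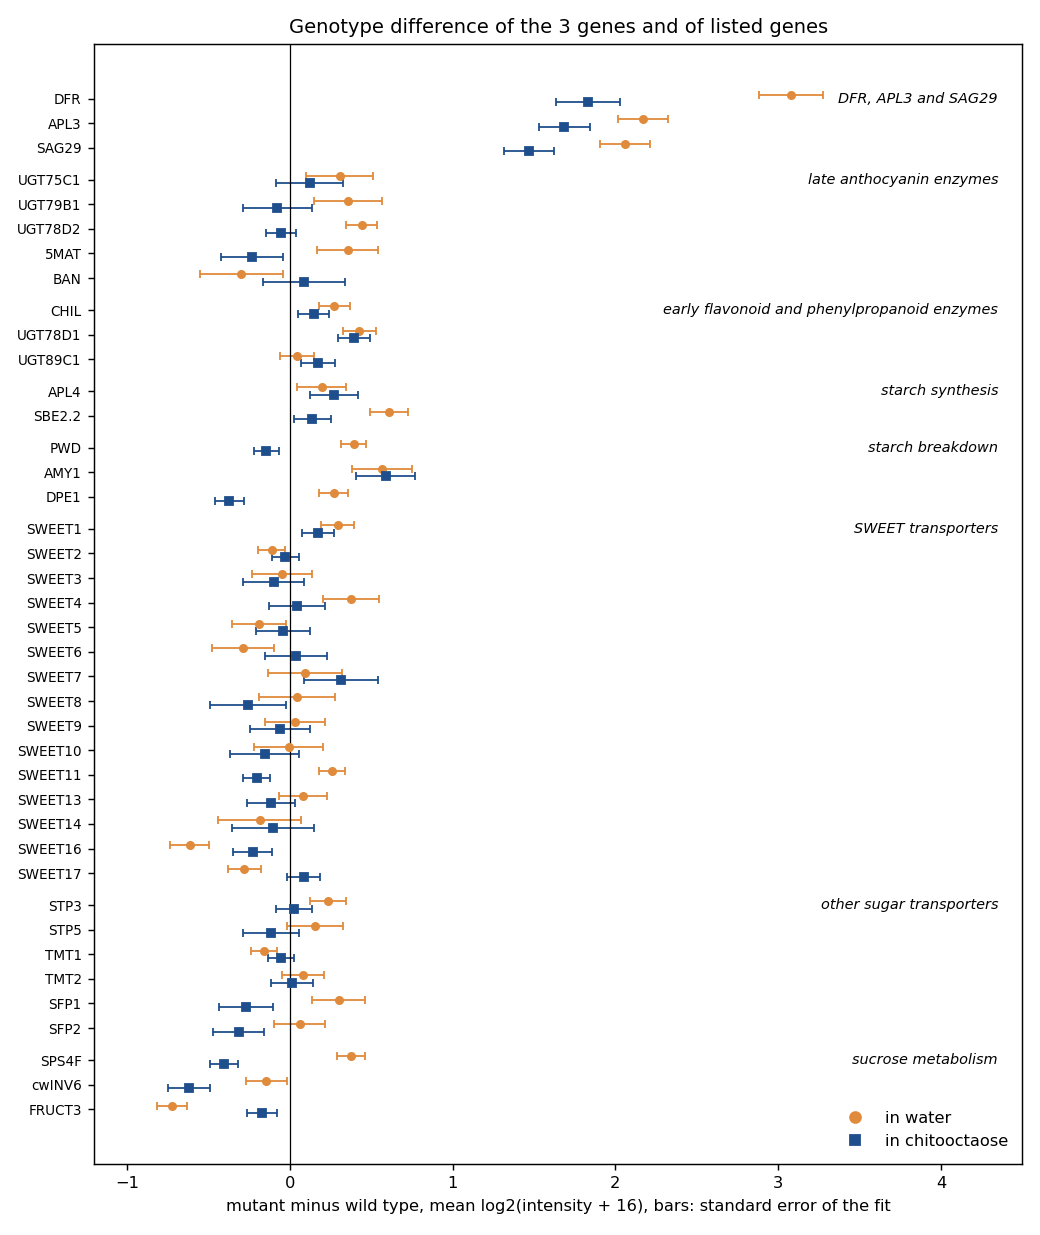
Mutant minus wild type, mean log2(intensity + 16), for DFR, APL3, SAG29 and the 37 measured genes of 7 lists; circles are water, squares chitooctaose, and bars the standard error of the fit. The 3 genes lie between 1.47 and 3.08, and the 37 others between -0.73 and 0.61. The 3 were chosen for high values in the mutant in water, which sets part of this gap.

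Conditions in which the 3 genes are known to rise were looked at through further lists. The name of SAG29 comes from senescence, and 3 of 18 listed senescence genes were measured. SAG101, a lipase-like gene, was higher in the mutant in water by 0.58 ± 0.16 (adjusted p = 0.028, lost in each of 6 fits without an array) and lower in chitooctaose by -0.59 ± 0.16 (adjusted p = 0.017, lost in 3 of 6, with overlapping arrays). WRKY53 and WRKY6, transcription factor genes of senescence that also answer elicitors, were lower in both treatments, by -0.44 ± 0.12 and -0.33 ± 0.09 in water (lost in 4 and 5 of 6 fits) and by -5.25 ± 0.12 and -1.25 ± 0.09 in chitooctaose (adjusted p = 3.1e-15 and 1.6e-08).

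Of 14 genes of abscisic acid and osmotic stress 2 were measured, and they went opposite ways in water. COR15A, a chloroplast protein of cold and drought, was higher by 0.91 ± 0.12 (adjusted p = 6.4e-05) and the dehydrin gene LTI30 lower by -0.45 ± 0.08 (adjusted p = 0.0012). In chitooctaose they gave -0.02 ± 0.12 and -0.03 ± 0.08 with no call. The 1 measured of 19 genes of sugar signalling and low energy, the bZIP factor gene bZIP53, gave -0.11 ± 0.06 in water and was lower in chitooctaose by -0.29 ± 0.06 (adjusted p = 0.0031, and 0.057 under quantile normalization). No gene of the phosphate starvation list has a probe set named for it alone, and those genes were not analysed here.

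Tissue markers moved with genotype in part. EXPA7 and EXPA18, expansin genes of root hairs, were lower in the mutant in water by -0.65 ± 0.12 and -0.62 ± 0.11 (adjusted p = 0.0011 and 0.0010). PYK10 gave -0.01 ± 0.07 and RCA 0.01 ± 0.06. In chitooctaose, where DFR, APL3 and SAG29 were called higher, EXPA7 gave -0.13 ± 0.12, EXPA18 -0.07 ± 0.11, PYK10 0.04 ± 0.07 and RCA -0.13 ± 0.06, and none was called. The part of the root hair genes in the water values was not tested. In RNA of whole seedlings a change in how many cells express a gene and a change in RNA per cell cannot be told apart.

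The genes whose profiles were closest to these 3 were found by the root-mean-square difference over the 12 arrays, after centring each profile of log2(intensity + 16) on its own mean. Closest to DFR was AT1G80130, a tetratricopeptide repeat protein, with a root-mean-square difference of 0.33 log2 units. Its intensity was 162 to 175 in wild type water, 227 to 251 in wild type chitooctaose, 1405 to 1545 in mutant water and 1145 to 1243 in mutant chitooctaose. APL3 (0.40) and SAG29 (0.44) came next, followed by the calmodulin-like gene CML41 (0.45) and AT3G21620 (0.53).

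Closest to APL3 and to SAG29 was AT3G21620, with 0.27 and 0.28. It read 8.20 to 20.03 in wild type water, 5.25 to 14.3 in wild type chitooctaose, 78.0 to 95.9 in mutant water and 66.6 to 78.2 in mutant chitooctaose. In the gene order of TAIR10.1 it lies next to the receptor gene CERK1. For APL3 the others were CML41 (0.27), SAG29 (0.30), AT1G76960 (0.32) and AT3G28540 (0.32), a P-loop nucleotide hydrolase. For SAG29 they were APL3 (0.30), AT3G28540 (0.31), AT1G76960 (0.33) and BETA-VPE (0.34), a vacuolar processing protease. APL3 and SAG29 were thus among the 5 closest to each other and to DFR, whereas DFR, with its wider range, was 10th for APL3 and 14th for SAG29. Likeness here reflects the genotype difference that chose the genes.

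**Figure D4:**
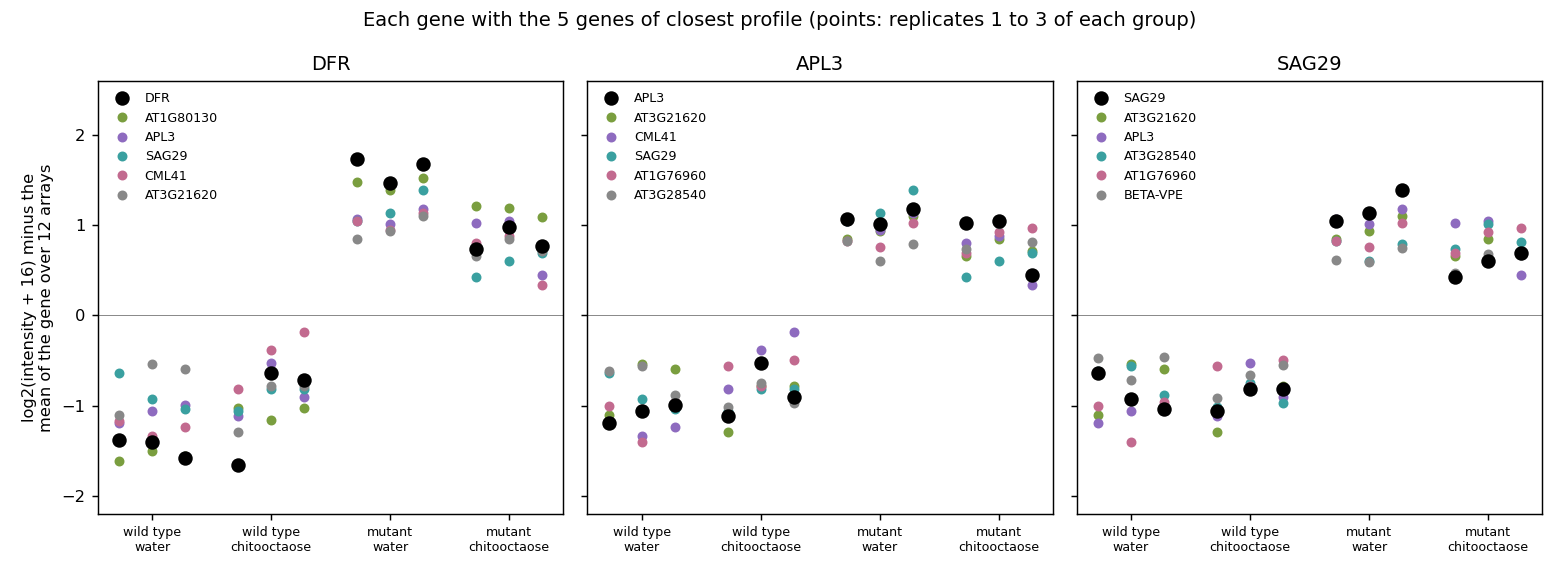
log2(intensity + 16) minus the mean of each gene over the 12 arrays (vertical), for DFR, APL3 and SAG29 (black) and the 5 genes of closest profile (colours); the 3 points of a group are replicates 1 to 3. All plotted genes lie below 0 on wild type arrays and above 0 on mutant arrays.

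At 2-fold or more, 90 probe sets were called higher in the mutant in water and 157 in chitooctaose. The 2 comparisons share no array but use the same estimate of spread for each probe set, so their calls are not independent. In both were 60 probe sets, 66.7% of the first and 38.2% of the second, of which 29 carry 1 gene name. DFR, APL3 and SAG29 are among these 29, and were chosen for being high in the mutant in water. The measured genes among the 8 on each side of them, in the order of TAIR10.1, did not show differences of like size. Those of SAG29 all lay on the same side, at steps -8, -5 and -4 in gene order. The nearest measured to DFR lay at steps -6 and 2, so genes directly beside DFR and SAG29 were not covered. For DFR 7 neighbours were measured, with differences from -0.48 to 0.21 in water and from -0.41 to 0.58 in chitooctaose. For APL3 10 neighbours gave -0.42 to 0.55 and -0.62 to 0.60, and for SAG29 3 gave -0.38 to 0.14 and -0.41 to 0.14.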

How the data were processed

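Each array gave 1 value per probe set. Per the labels' protocols, Trizol was used for extraction, and 8 ug of total RNA went into each biotinylated cRNA. The deposited values are intensities on a linear scale, and for the authors' background correction, summary and scaling no method is given in the sources used here. Of 22810 probe sets in the file, 64 are controls and were left out, and 99 single values of the 22746 tested are exactly 0.

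The values were taken as log2(value + 16) with no further scaling. A model with 1 mean per group was fitted to all 12 arrays in R 4.3.3 by limma 3.58.1, whose eBayes step used the trend of variance with mean (residual degrees of freedom 8, prior 8.3). Calls are two-sided, where p after Benjamini-Hochberg adjustment across the 22746 probe sets was under 0.05. With 3 arrays against 3, an exact permutation test cannot give a two-sided p under 0.1, and the number of arrays limits the precision. Python 3.11.15, pandas 2.3.3 and matplotlib 3.10.9 made summaries and figures. The code was tested on simulated data.

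By the platform annotation 13513 probe sets carry 1 gene name, 503 several and 8730 none, and 13436 of the 13513 matched the TAIR10.1 gene table, used for names and gene order only, since no build is named for the arrays. Of 241 genes in 15 lists 47 have a probe set named for them alone, and 3 lists had no such gene. The genes, lists and tests were chosen with earlier results of these data known. Named list genes are up to 4 per list with the largest called difference between genotypes in each treatment, or, with none called, those 2 of lowest p; for a gene with several probe sets the brightest was used. Other list genes, and the count of chromosome neighbours, were added after their values were seen.

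Alternatives were quantile normalization, median centring, 1 or 64 added before the logarithm, a filter that removed the 40% dimmest probe sets, no trend, a block for the replicate number, only the groups compared, and leaving out each array in turn. No batch is given for the arrays.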

Additional observations from a re-analysis of the deposited data

Results flagged for a closer look

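For 13 of the 47 measured list genes (27.7%) the response to chitooctaose differed between the genotypes, by a test of the difference itself. The test was limma, adjusted over 22746 probe sets, of which 11.3% were called. The lists were written with earlier results of these data known. Each value is the change in the mutant less the change in wild type. Among flavonoid, starch and sugar genes the difference was -0.50 for UGT78D2 (adjusted p = 0.020), -0.54 for PWD (0.0023), -0.64 for DPE1 (0.0018), -0.46 for SWEET11 (0.013), -0.78 for SPS4F (0.00019) and 0.55 for FRUCT3 (0.0083). SPS4F rose by 0.62 in wild type and gave -0.16 in the mutant. Among the other lists it was -1.17 for SAG101 (0.0019), -4.81 for WRKY53 (3.1e-12), -0.92 for WRKY6 (9.4e-05), -0.93 for COR15A (0.0011), 0.41 for LTI30 (0.023), 0.55 for EXPA18 (0.027) and 0.52 for EXPA7 (0.0499). For DFR, APL3 and SAG29 this difference was not tested, since it contains the contrast that chose them.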

How the results depend on the processing

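The differences of DFR, APL3 and SAG29 in chitooctaose kept their direction and their call under every alternative run, with values from 1.34 to 2.102 for DFR, 1.40 to 1.88 for APL3 and 0.86 to 1.94 for SAG29 and adjusted p (limma) of at most 0.00018. SAG29 is not among the probe sets left when the dimmest 40% are removed. In water the value of DFR was 3.50 with 1 added and 2.31 with 64 added, that of SAG29 2.59 and 1.2995, and that of APL3 1.80 with 64 added. Leaving out single arrays gave 0.27 to 0.77 for the DFR response in wild type and -1.57 to -1.07 for its difference of responses. Calls in the mutant response (339) became 672 under median centring, 675 under quantile normalization and 193 with no trend, and 155 to 243 without single arrays. List genes called there (2 of 47) became 5, 5 and 1 under the same settings, 1 with only the groups compared and 1 to 3 without single arrays, and those called in the wild type response (19) became 12 with only the groups compared. Of the calls between genotypes 39.0% were higher in water and 45.0% in chitooctaose; median centring gave 52.1% in water and quantile normalization 62.7% in chitooctaose. The cause of these shifts was not tested.

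Pairing of the samples by replicate number was at most weak, and was not tested. Correlations of deviations in same-numbered pairs ran from -0.13 to 0.22, with 6 of 18 over 0.1. An array correlated best with its own number in 17 of 36 cases, each a choice among 3 arrays. With the replicate number as a block there were 4062 calls between genotypes in chitooctaose against 3929, and DFR, APL3 and SAG29 kept differences of 1.83, 1.69 and 1.47 with adjusted p (limma) of at most 6.5e-06.

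Signs turned for uncalled values near 0. In chitooctaose these were COR15A (0.011 under median centring, 0.0065 under quantile normalization, -0.10 to 0.068 without single arrays), LTI30 (0.068 under quantile normalization, -0.11 to 0.016 without single arrays), TMT1 (0.054 under quantile normalization), and without single arrays EXPA18 (-0.19 to 0.021), STP3 (-0.036 to 0.11), UGT75C1 (-0.13 to 0.30) and UGT78D2 (-0.13 to 0.029). In water they were RCA (-0.0055 under quantile normalization, -0.0036 to 0.021 without single arrays) and SFP2 (-0.039 to 0.12).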
